A study of Mus musculus with 2 samples.

Results

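The mitotic and G2/M genes are 42 mouse genes, chosen by name, that code for proteins used by a cell between late G2 phase and cytokinesis. All 42 were on the array, among 20660 genes that could be named there. They were compared in the pre colony forming unit-erythrocyte (pre CFU-E), an early erythroid progenitor of the bone marrow, of WT and ESAM-KO mice. ESAM is an endothelial cell-selective adhesion molecule that hematopoietic stem cells also carry, and the ESAM-KO mice lack it in every cell type, so that the knockout was not limited to blood cells. Both groups were C57BL/6 mice of 8 to 12 weeks that had received a single injection of 120 mg/kg of 5-fluorouracil (5-FU), a drug that kills dividing cells, 8 days earlier. From each genotype, bone marrow of 3 mice was pooled and the sort took Lin- cells that were c-Kit+ but Sca1-, CD41Lo, FCgRII/III-/Lo and positive for both endoglin and CD150. No untreated mice are part of the comparison, so every value below describes marrow in recovery after 5-FU.

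Each pool was hybridised to 1 Agilent SurePrint G3 mouse array, so values come without SD and p-value, and genotype, pool, sort and amplification cannot be told apart. Values are processed spot intensities in arbitrary units, and in each pair of intensities the WT value comes first. Before each log2 ratio (ESAM-KO over WT) was taken, each array was set to its own 75th percentile, which was 201.4 for WT and 251.1 for ESAM-KO. This lowers every log2 ratio by 0.32 against unscaled intensities. The error printed with a ratio is the scanner software's error of that probe, and it covers the spot, not the pool. The Esam probe gave 27.37 in WT against 20.59 in ESAM-KO, a log2 ratio of -0.73 ± 0.31 at a dim signal. Whether that probe lies inside the deleted part of the gene is not given in the sources used here. All 12 listed genes of pre CFU-E and early erythroid cells, among them Kit, Eng, Gata1, Klf1 and Epor, were above background on both arrays.

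Entry into mitosis is driven by cyclin A and cyclin B bound to the kinase Cdk1, which the phosphatase Cdc25c and the kinases Plk1 and Aurora A help to switch on. Chromosomes are then attached to the spindle through the kinetochore, the spindle checkpoint holds the cell until each is attached, and the anaphase promoting complex ends mitosis by marking cyclin B and securin for degradation. Most of these genes are transcribed late in the cell cycle, so the RNA of a cell population carries more of them when more of its cells are in G2 and mitosis. In bulk RNA, fewer cells in mitosis and less RNA per mitotic cell cannot be told apart.

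The promoters of the mitotic genes are shown because a pair of short motifs is their best known shared feature. The cell cycle homology region (CHR element, TTTGAA or TTTAAA) and the CCAAT box are known as binding sites of MuvB complexes such as DREAM and of NF-Y, respectively. RefSeq promoters (assembly GRCm38.p6, 250 bases before to 50 after the start) were found for 35 of the 42 genes, 37 promoters in all. Aurkb, Incenp, Ccna2, Spc24, Kif20a, Cdc25c and Tpx2 had no entry. A stretch of 160 bases, from 130 before the start site to the 30 bases from it on, is printed 5′ to 3′ on the gene's strand for 4 of them, with each CHR element and each CCAAT box on either strand (ATTGG on the other) in capitals. Kif20b, at chr19:34922228-34922387 on the plus strand, and Kif4, at chrX:100625935-100626094 on the plus strand, are the genes with the highest and the lowest ratio among those with a promoter entry. Ccnb1, at chr13:100786457-100786616 on the minus strand, and Ccnb2, at chr9:70421525-70421684 on the minus strand, code for the B cyclins and differed in their ratios.
Kif20b: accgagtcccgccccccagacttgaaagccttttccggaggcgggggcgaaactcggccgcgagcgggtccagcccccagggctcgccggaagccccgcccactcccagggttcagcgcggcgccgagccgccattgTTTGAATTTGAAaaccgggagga
Ccnb1: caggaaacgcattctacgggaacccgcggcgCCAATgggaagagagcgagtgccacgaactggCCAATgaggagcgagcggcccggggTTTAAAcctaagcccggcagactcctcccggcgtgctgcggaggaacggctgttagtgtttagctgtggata
Ccnb2: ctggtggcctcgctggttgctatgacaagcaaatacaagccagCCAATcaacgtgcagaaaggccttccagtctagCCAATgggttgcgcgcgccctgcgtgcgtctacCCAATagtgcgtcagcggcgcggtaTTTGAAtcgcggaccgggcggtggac
Kif4: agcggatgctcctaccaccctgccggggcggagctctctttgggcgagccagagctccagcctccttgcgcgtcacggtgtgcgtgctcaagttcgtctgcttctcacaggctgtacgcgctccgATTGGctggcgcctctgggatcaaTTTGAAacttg

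A CHR element lay in 32 of the 37 promoters (86.5%), against 27.6% of all 32851 promoters of the table. Among the 123 promoters of other mitotic genes, a wider set described below, 41.5% had one, and among 50 promoters of replication genes 22%. A CCAAT box lay in 28 of the 37 (75.7%), against 37.4% of all. Such a box also lay in 59.3% of the promoters of the other mitotic genes and in 50% of those of the replication genes. An E2F site is a motif of genes used in DNA replication. It was searched as TTCCCGC and as TTCGCGC, and further as TTGCCGC and as TTGGCGC. It lay in 6 of the 37 (16.2%), against 9.57% of all promoters and 60% of the 50 promoters found for 41 of the 51 replication genes. Of the promoters of the other mitotic genes 31.7% had one. The genes without a CHR element in this window were Bub1, Mad2l1, Nuf2, Nusap1 and Pttg1. Some matches share bases: 3 of the 7 E2F matches and 1 of the 47 CHR matches overlap a CCAAT box, and no CHR match overlaps an E2F match.

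**Figure D1:**
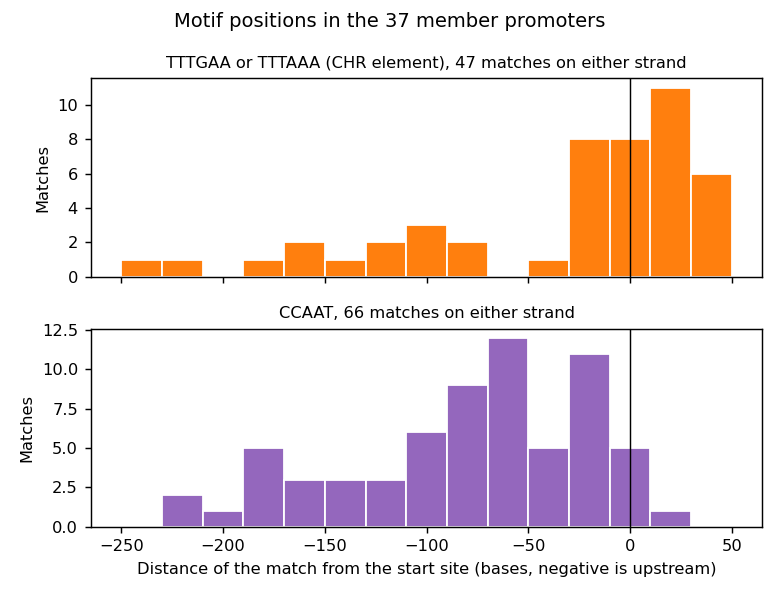
Positions of the matches in the 37 promoters, as counts of matches in bins of 20 bases (vertical axis) by distance from the start site in bases (horizontal axis, negative is upstream, vertical line at the start). The 47 CHR matches gather around the start, with a median position of 3, and the 66 CCAAT matches lie mostly upstream of it, with a median position of -67.

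The CHR elements lay close to the start site. Within 50 bases of it on either side, 28 of the 37 promoters had one, against 8.28% of all promoters. A CCAAT box lay between 150 and 21 bases upstream in 22 of the 37, against 22.9% of all. Both windows were chosen after the positions had been seen. The motif was shared by genes at both ends of the range of ratios: the 29 genes with a CHR element and a ratio spanned log2 ratios from -1.27 to 1.03 with a median of 0.16, and the 5 without one spanned -0.48 to 0.63 with a median of 0.07.

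Of the 42 genes, 41 were above background on both arrays and have a ratio. Cenpf, which codes for a large outer kinetochore protein, stayed at background on both arrays, at 3.271 and 3.426. Of the 41 genes, 29 had a log2 ratio above 0, where 50.1% of all 14136 named genes with a ratio did and 48.5% of the 12615 genes above background on both arrays, and 12 were below 0, where 49.9% of all were. The balance depends on the scaling: with each array set to its median, 21 were above 0 and 20 below, while 40.8% of all genes were above 0. The median log2 ratio of the 41 genes was 0.14, with quartiles of -0.03 and 0.57, against 0.00 over all named genes.

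Few of them passed 2-fold. Kif20b alone was higher in ESAM-KO by more than 2-fold, where 6.99% of all genes were, and Cdc25c and Kif4 were lower by more than 2-fold, where 8.43% of all were. Together 3 of 41 genes (7.32%) passed 2-fold in either direction, against 15.4% of all. The Kif20b ratio lies within its scanner error of the 2-fold limit, and 0 members were higher by more than 2-fold with each array set to its median, where 5.35% of all genes were, or with normexp background correction, where 1.67% were.

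**Figure D2:**
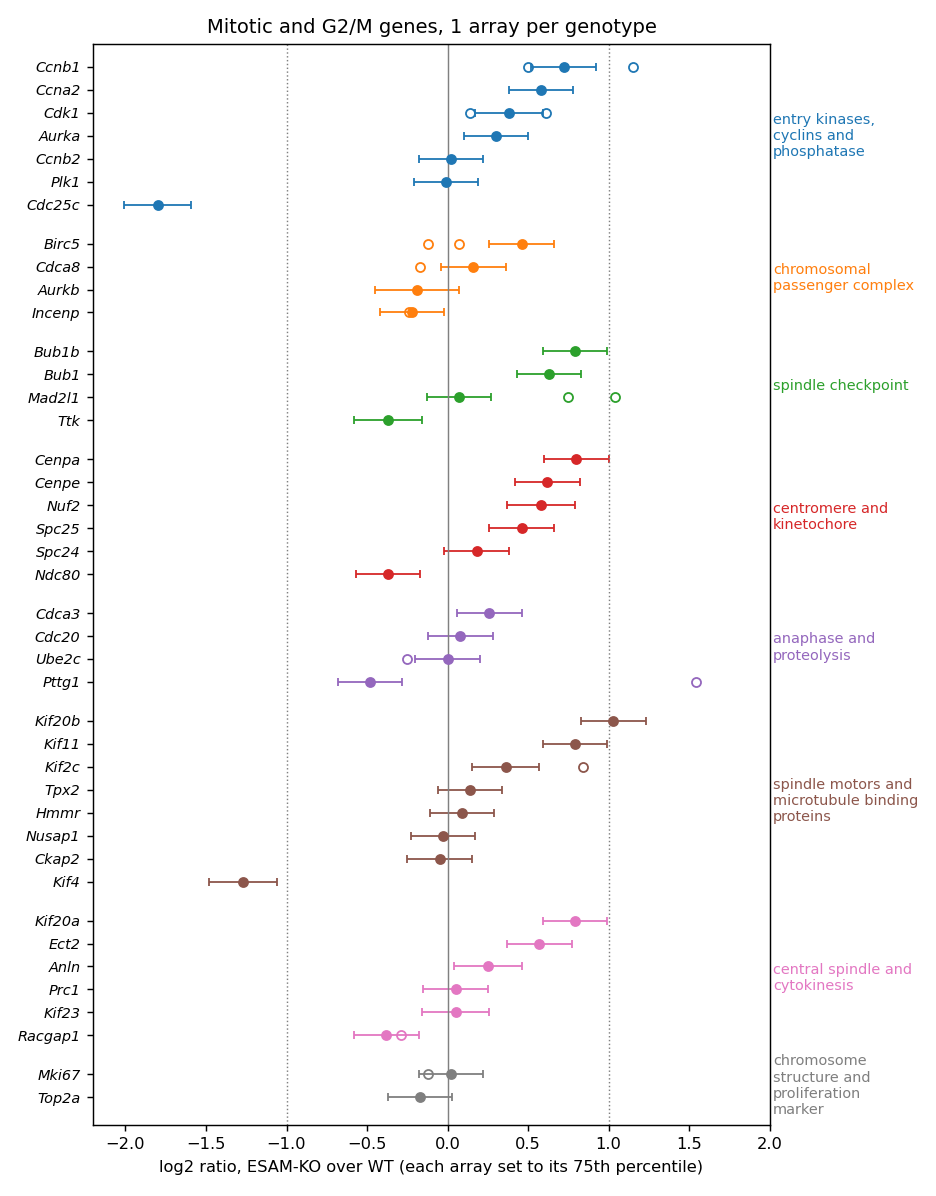
Log2 ratio of ESAM-KO over WT for each of the 41 genes with a ratio (horizontal axis, each array set to its 75th percentile), grouped and coloured by role and ordered by ratio within a role. Filled points are the brightest probe of the gene, bars are ± 1 scanner error of that probe, open circles are the other probes above background, and dotted lines mark 2-fold. Most points lie between -0.5 and 1, with Cdc25c at -1.80 and Kif4 at -1.27 apart on the left, and a setting of each array to its median leaves 21 of the 41 above 0.

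Markers of other cells differed between the arrays. All 6 neutrophil genes (Elane, Mpo, Camp, Ltf, S100a8 and S100a9) were more than 2-fold lower in ESAM-KO, at log2 ratios of -4.20 to -2.53, and their intensities summed to 42857 in WT and 8126 in ESAM-KO. The summed intensity of 6 mast cell, basophil and eosinophil genes was 1609 and 196.4, with Mcpt8 and Cpa3 above background on neither array. This sum is mostly Prg2, at 1223 and 112.8, and Epx, at 295.7 and 19.46. Prss34 was also lower in ESAM-KO, at 79.56 and 6.824, and Ms4a2 went the other way, at 3.17 and 40.86. For 5 B cell genes the sum was 431.3 and 166.1. Macrophage genes summed to 6593 and 7359. T and NK cell genes summed to 1961 and 2673, with Cd3g and Klrb1c above background on neither array. Endothelial genes summed to 2343 and 2437, with Cdh5 above background on neither. Each of these sums is mostly a single gene: Csf1r at 6554 and 7310, Nkg7 at 1833 and 2465, and Kdr at 2056 and 2345. All sums are of unscaled intensities, and after scaling the log2 ratios of Csf1r, Nkg7 and Kdr were -0.16, 0.11 and -0.13. Pecam1 was 3.98-fold lower in ESAM-KO, at 283.8 and 88.8. Among the 12 erythroid genes the median log2 ratio was -0.35, and 9 were below 0, where 49.9% of all genes were. Nfe2, an erythroid transcription factor, was at -1.34, and Tfrc, the transferrin receptor, was the highest, at 0.89. The part of these differences in the values of the mitotic genes was not tested.

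A finer look used the scanner error of each probe, a rule chosen after ratios had been seen. By more than 2 scanner errors, 13 of the 41 genes (31.7%) were higher in ESAM-KO, at log2 ratios of 0.46 to 1.03, where 19.5% of the 12615 genes above background on both arrays were. Among the 13 is Birc5, at 0.46 on its brightest probe and at 0.14 as the mean of its probes. By the same rule 3 of the 41 (7.32%) were lower, namely Cdc25c, Kif4 and Pttg1 (the last above 0 as the mean of its probes), where 21.7% of those genes were. The other 25 lay within 2 scanner errors of 0, and 16 of them within 1. With each array set to its median the counts became 11 higher and 6 lower, where 13.8% and 28.2% of those genes were, and without scaling 21 higher and 2 lower, where 38.9% and 11.4% were.

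**Figure D3:**
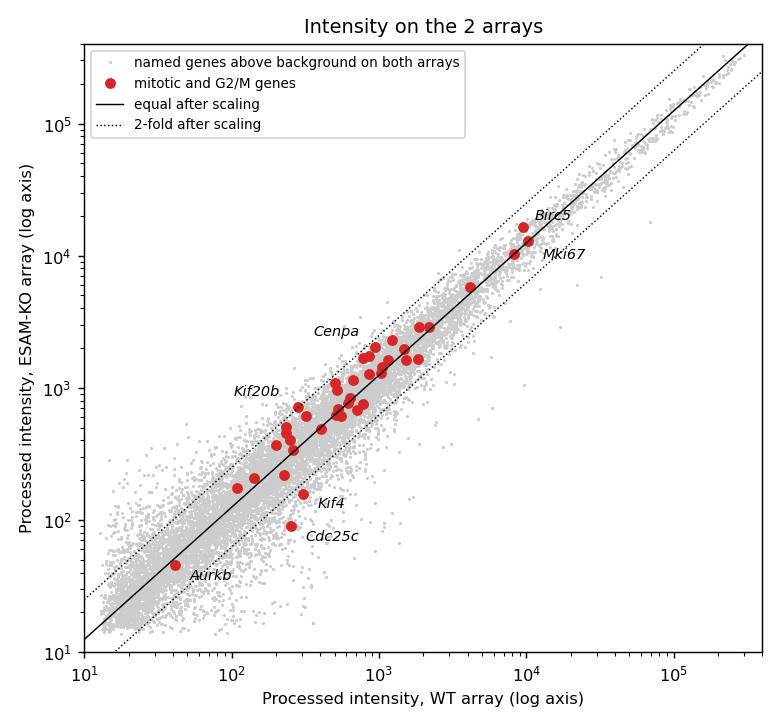
Processed intensity on the WT array (horizontal, log axis) and on the ESAM-KO array (vertical, log axis) of all named genes above background on both arrays (grey points) and of the 41 mitotic and G2/M genes (red points). The solid line marks equal values after scaling to the 75th percentile and the dotted lines 2-fold; the red points follow the solid line, with Kif20b at the upper dotted line and Kif4 and Cdc25c beyond the lower one.

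The genes of mitotic entry were divided. Ccnb1, cyclin B1, which carries Cdk1 into mitosis, read 852 in WT against 1745 in ESAM-KO, a log2 ratio of 0.72 ± 0.20. Ccna2, cyclin A2, which acts from S phase into G2, read 1232 and 2293, a log2 ratio of 0.58 ± 0.20. Both were higher in ESAM-KO by more than 2 scanner errors.

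Ccnb2, cyclin B2, which is found mainly at the Golgi, read 1026 and 1293, a log2 ratio of 0.02 ± 0.20. Its promoter above shares a CHR element and CCAAT boxes with that of Ccnb1, which also holds an E2F match that shares bases with a CCAAT box. The part of these motifs in the ratios was not tested. The ratios of the B cyclins thus differed by more than their scanner errors, with no second array to set the difference against.

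Cdk1, the kinase of both cyclins, read 247.9 and 403.6, a log2 ratio of 0.38 ± 0.21. Its other probes gave 0.61 and 0.14. Aurka, the kinase Aurora A of the spindle poles, read 1861 and 2863, a log2 ratio of 0.30 ± 0.20. Both lay above 0 by less than 2 scanner errors.

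Cdc25c is the phosphatase that removes the inhibitory phosphates of Cdk1 at the entry into mitosis. It read 251.2 in WT against 89.93 in ESAM-KO, 3.48-fold lower, at a log2 ratio of -1.80 ± 0.21. It was the lowest of the 41 ratios and rests on a single probe. Its log2 ratio ran from -1.93 to -1.29 over the 5 other scalings and normexp, past 2-fold in all 6. The -1.29 came with normexp. The other alternatives could hardly move a gene with 1 probe that is above background on both arrays. Plk1, Polo-like kinase 1, which activates Cdc25c, read 619.1 and 768.6, a log2 ratio of -0.01 ± 0.20.

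The phosphatase Cdc25c and its sister genes did not stand on one side. Cdc25b, the phosphatase that starts the activation of Cdk1 at the centrosome, read 282.1 and 141.4, a log2 ratio of -1.31 ± 0.21. Cdc25a, which also acts at the entry into S phase, read 245.3 and 613.4, a log2 ratio of 1.00 ± 0.21 that lies at the 2-fold limit. Cdc25a was named for this comparison after its value was seen.

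The chromosomal passenger complex corrects faulty attachments and later guides cytokinesis. Its members lay around 0, with a median log2 ratio of -0.01. Birc5, survivin, the highest, read 9558 and 16363, a log2 ratio of 0.46 ± 0.20, but its other probes gave 0.07 and -0.12. Cdca8, borealin, read 4148 and 5795 at 0.16 ± 0.20, with a second probe at -0.17. Incenp, the scaffold of the complex, read 1514 and 1624 at -0.22 ± 0.20, with its other probe at -0.24. Aurkb, the kinase Aurora B, was dim at 41.24 and 45.23 and had a log2 ratio of -0.19 ± 0.26. No member of the complex was placed above or below 0 by more than 2 scanner errors on every probe.

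In the spindle checkpoint, both Bub genes were higher in ESAM-KO. Bub1b, which codes for BubR1, an inhibitor of Cdc20, read 235.4 and 506.1, a log2 ratio of 0.79 ± 0.20. Bub1, which recruits checkpoint proteins to the kinetochore, was present on 9 spots of one probe. On the WT array these spots read 225.1 at the lowest, 236.5 at the median and 247.4 at the highest. On the ESAM-KO array they read 405.5, 456.8 and 498.3. The log2 ratio of every spot after scaling lay between 0.53 and 0.81, with a mean of 0.63 ± 0.20. The spots share 1 RNA per array and are no replicates of the genotype. Their SD over the spots was 0.05 in WT and 0.08 in ESAM-KO on the log2 scale, where the median of the 216 probes on several spots was 0.10 and 0.09.

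The other checkpoint genes were less clear. Mad2l1, which codes for the Mad2 protein that binds Cdc20, had a log2 ratio of 0.07 ± 0.20 on its brightest probe, at 636.8 and 831. Its other probes, at 308 and 787.2 and at 290.3 and 609.2, gave 1.04 and 0.75, so that its 3 probes agree only in lying above 0. Ttk, the kinase Mps1 that starts the checkpoint signal, read 226.5 and 219.3, a log2 ratio of -0.37 ± 0.21.

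The centromere and kinetochore genes had a median of 0.52, with 5 of 6 above 0, where 50.1% of all genes were. With each array set to its median 5 were also above 0, where 40.8% of all genes were. The 34 other centromere, kinetochore and checkpoint genes of the wider set below had a median of 0.24, with 64.7% above 0. Cenpa, the histone H3 variant that marks the centromere, read 934.8 and 2036, a log2 ratio of 0.80 ± 0.20. Cenpe, the kinetochore motor that carries chromosomes to the spindle equator, read 320.4 and 612.9, at 0.62 ± 0.20.

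The Ndc80 complex, 4 subunits that bind the microtubule end, did not share one ratio. Nuf2 read 198.7 and 369.2, a log2 ratio of 0.58 ± 0.21. Spc25 read 669.3 and 1151, at 0.46 ± 0.20, and Spc24 read 1147 and 1618, at 0.18 ± 0.20. Ndc80, the subunit that pairs with Nuf2, read 784.7 and 756.9, at -0.37 ± 0.20. Nuf2 and Ndc80 thus lay on opposite sides of 0, with Ndc80 within 2 scanner errors of it.

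The genes that end mitosis lay near 0, with a median of 0.04. Cdc20, the activator of the anaphase promoting complex, read 1490 and 1957, a log2 ratio of 0.08 ± 0.20. Ube2c, the ubiquitin-conjugating enzyme of that complex, read 8204 and 10257, at 0.00 ± 0.20, with a second probe at -0.25. Cdca3, which links the SCF ligase to the degradation of Wee1, read 859.9 and 1280, at 0.26 ± 0.20.

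Pttg1, securin, which keeps separase inactive until anaphase, had the widest gap between its probes. The brightest read 1839 in WT against 1647 in ESAM-KO, a log2 ratio of -0.48 ± 0.20. The other was dim, at 15.71 and 56.92, and gave 1.54 ± 0.32. The mean of both probes was 0.53, above 0. Its direction is therefore not settled by these probes.

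The spindle motors and microtubule binding proteins held the highest of the 41 ratios and the second lowest. Kif20b, a kinesin of late mitosis and the midbody, read 283.4 and 722.1, a log2 ratio of 1.03 ± 0.20. Over the other scalings and normexp it ran from 0.90 to 1.35 and passed 2-fold in 4 of 6. Kif11, Eg5, the motor that pushes the spindle poles apart, read 501.4 and 1081, at 0.79 ± 0.20. Both were higher by more than 2 scanner errors.

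Kif4, the chromokinesin that shapes chromosomes and the central spindle, was the reverse. It read 304.2 in WT against 157.5 in ESAM-KO, 2.41-fold lower, at a log2 ratio of -1.27 ± 0.21. It was lower by more than 2-fold in 5 of 6 of these settings, the exception being unscaled intensities, at -0.95. It rests on a single probe.

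The others of this role were closer to 0. Kif2c, the kinesin MCAK that takes microtubules apart, read 109 and 174.9, a log2 ratio of 0.36 ± 0.21, with its dimmer probe at 0.84. Tpx2, which activates Aurora A on the spindle, read 1047 and 1440 at 0.14 ± 0.20, and Hmmr, a spindle protein that binds hyaluronan, read 2170 and 2872 at 0.09 ± 0.20. Nusap1, which bundles spindle microtubules, read 507.3 and 619.6 at -0.03 ± 0.20, and Ckap2, a spindle pole protein, read 407 and 490.7 at -0.05 ± 0.20. On their brightest probes all 5 lay within 2 scanner errors of 0.

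Central spindle and cytokinesis genes differed among themselves. Kif20a, the kinesin MKLP2 that brings the passenger complex to the central spindle, read 785.2 and 1695, a log2 ratio of 0.79 ± 0.20. Ect2, the exchange factor that activates RhoA at the cleavage furrow, read 520.7 and 960.8, at 0.57 ± 0.20. Racgap1, which recruits Ect2 and forms centralspindlin with Kif23, read 711 and 679.9, at -0.38 ± 0.20, with a second probe at -0.29.

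Kif23, the motor of centralspindlin, read 262.8 and 338.8 at 0.05 ± 0.21, and Prc1, which bundles the central spindle, read 530.8 and 687.1 at 0.05 ± 0.20. Anln, anillin, the scaffold of the contractile ring, read 141 and 208.9, at 0.25 ± 0.21. These 3 genes lay within 2 scanner errors of 0.

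The usual marker of proliferating cells did not differ beyond its error. Mki67, Ki-67, which coats mitotic chromosomes, read 10277 and 13009, a log2 ratio of 0.02 ± 0.20, and its second probe gave -0.12. Top2a, the topoisomerase that untangles chromosomes before they separate, read 554.1 and 614.1, at -0.17 ± 0.20. Mki67 and Top2a were thus within 1 scanner error of 0 on the brightest probes, while Ccnb1, Bub1, Cenpa and Kif11 were above it by more than 2.

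Several genes could be read on more than 1 probe. Of the 11 genes with more than 1 probe above background, 6 had all probes on the same side of 0 and 5 did not (Birc5, Cdca8, Mki67, Pttg1 and Ube2c). Among all 3056 genes with several such probes, 58.1% had them on the same side. The median difference between the highest and the lowest probe of a gene was 0.47 in the 11 genes and 0.47 in the 3056. Ccnb1 was higher by more than 2 scanner errors on each of its 3 probes, at 0.72, 1.15 and 0.50. A single probe on the array stands for 29 of the 42 genes.

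A wider set of 128 other mitotic genes, listed by function, was read in the same way. Of these 127 were on the array and 126 had a ratio, with a median of 0.09, which became -0.04 with each array set to its median. Higher by more than 2-fold were 10 of the 126 and lower 5, together 11.9%, against the 15.4% of all genes. Of the genes above background on both arrays, as the 126 are, 5.22% were higher and 7.37% lower. By more than 2 scanner errors 22.2% were higher and 15.9% lower, where 19.5% and 21.7% of the genes above background on both arrays were.

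The highest of them was Mastl, the Greatwall kinase that keeps the phosphatase PP2A off in mitosis, at 17.11 in WT against 189 in ESAM-KO, a log2 ratio of 3.15 ± 0.34 from a WT value close to background. Ncaph2, a condensin II subunit, read 171.2 and 745.3, at 1.80 ± 0.21, and its second probe gave 1.40. Next were Pbk, a mitotic kinase, at 1.56, Zw10, a kinetochore protein of the checkpoint, at 1.48, and Sgo2a, a shugoshin that protects centromeric cohesion, at 1.45. Of these 5 only Ncaph2 had a second probe, and the others rest on a single probe each.

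Among those lower in ESAM-KO were an activator and an inhibitor of the anaphase promoting complex. Fzr1, Cdh1, its activator in late mitosis and G1, read 4409 and 2257, a log2 ratio of -1.28 ± 0.20, but its second probe gave -0.13. Fbxo5, Emi1, its inhibitor, read 624.9 and 363.3, at -1.10 ± 0.20. Espl1, separase, the protease that opens cohesin, read 108.8 and 61.39, at -1.14 ± 0.22. Cdc25b, described above, and Troap, a spindle protein, at -1.21 ± 0.21, completed the 5. The group of the anaphase promoting complex and separase, which holds Fzr1, Fbxo5 and Espl1, had the lowest median of the 6 groups of other mitotic genes, -0.07. In it 11 of 16 were below 0, where 49.9% of all genes were.

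The replication genes, which act one phase earlier, were read as another cell cycle set. Of 51 listed genes 50 had a ratio, with a median of 0.10, against 0.14 for the mitotic genes, and -0.03 with each array set to its median, where that of the mitotic genes was 0.01. By more than 2-fold 4 were higher, Clspn at 1.66, Ccne1 (cyclin E1) at 1.57, Pole2 at 1.57 and Mcm10 at 1.36, and Pold3 was lower at -1.13. Of all genes 6.99% were higher and 8.43% lower by that limit, and of the genes above background on both arrays 5.22% and 7.37%. By more than 2 scanner errors 30% were higher and 6% lower, where 19.5% and 21.7% of the genes above background on both arrays were. The difference between the sets was not tested, since there is 1 array per genotype.

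**Figure D4:**
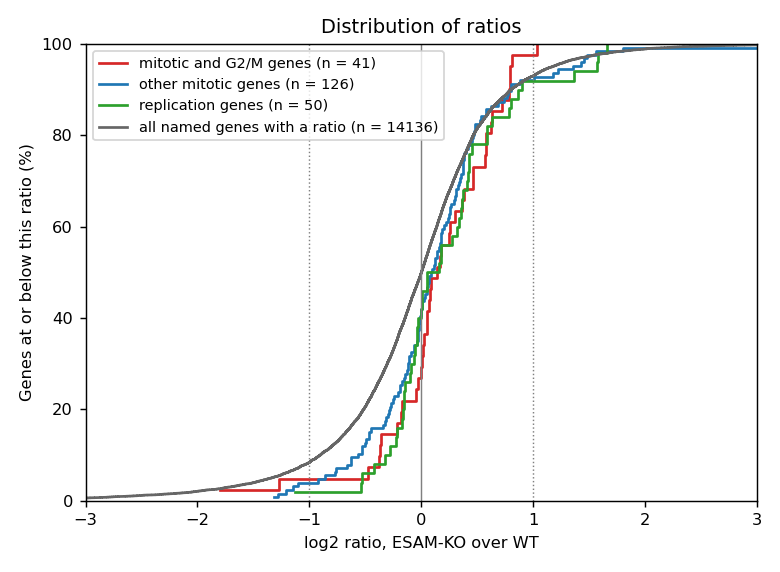
Share of genes at or below each log2 ratio of ESAM-KO over WT (vertical axis in percent, horizontal axis log2 ratio from -3 to 3) for 41 mitotic and G2/M genes (red), 126 other mitotic genes (blue), 50 replication genes (green) and all 14136 named genes with a ratio (grey). Dotted lines mark 2-fold. Between -1 and 0 the 3 lists run below the grey curve, with medians of 0.14, 0.09 and 0.10 against 0.00, and with each array set to its median these become 0.01, -0.04 and -0.03 against -0.13.

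The median of the mitotic genes was set against that of all genes under each alternative. The median of the 41 minus that of all genes was 0.14 as reported and 0.09 to 0.25 over 11 alternatives, where their own median ran from 0.01 with each array set to its median to 0.46 without scaling. A single factor per array shifts every gene alike, so it can hardly change this difference, and the intensities alone do not fix where 0 lies. Where the setting could change it, it was 0.09 with normexp and 0.25 with no filter on dim probes. It was 0.14 with quantile normalization, cyclic loess and the mean of the probes, and 0.16 with only genes above background on both arrays.

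**Figure D5:**
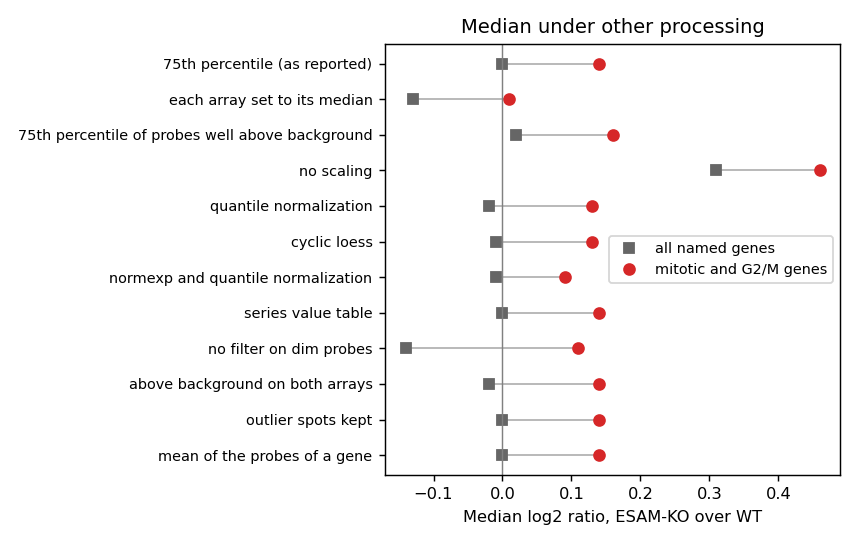
Median log2 ratio of ESAM-KO over WT (horizontal axis) of the mitotic and G2/M genes (red circles) and of all named genes (grey squares) as reported and under 11 alternatives (rows). The gap between them can hardly change where each array is scaled by a single factor. It is lowest at 0.09, with normexp and quantile normalization, and highest at 0.25, with no filter on dim probes.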

How the data were processed

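Sorted pre CFU-E of 1 WT and 1 ESAM-KO pool were measured, and per the labels RNA was amplified (Ovation Pico WTA System V2) and labelled with Cy3. The authors deposited each spot's intensity from Agilent Feature Extraction 10.10.1.1 (version from the submitters' processing notes), background-subtracted within the array and not scaled between arrays. The series value table holds the same intensity to 3 significant digits, with column medians of 20.8 (WT) and 28.2 (ESAM-KO).

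Control spots and 254 outlier spots were left out. Log2 intensity minus the array's 75th percentile was used, spots of a probe were averaged, and a probe counted as above background if over 50% of its spots did. A probe above background on one array gave a bound. Accessions were matched to RefSeq (GRCm38.p6, for names and promoters), which named 27235 of 55680 probes (48.9%). The brightest probe represented a gene.

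The members and lists were chosen with earlier results of these data known. All members are named, and of the other lists the 5 largest past 2-fold in each direction. With 1 array per genotype no test was made, and the number of arrays limits the precision. Alternatives covered scaling, background correction (normexp, offset 50, on median spot signals since the files hold no means), dim probes, outliers, probes of a gene and fold. Counting was tested on simulated data. The value of 1 marker gene is not reported here. Python 3.11.15 (pandas 2.3.3, numpy 2.4.6, matplotlib 3.10.9) and R 4.3.3 (limma 3.58.1) were used.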

Additional observations from a re-analysis of the deposited data

How the results depend on the processing

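Scaling decided most counts. With each array set to its median, 0 members were higher by more than 2-fold, 20 were below 0, and the medians were 0.01 for the members, -0.04 for the other mitotic genes and -0.03 for the replication genes. Without scaling, 6 members were more than 2-fold higher and 1 lower, 6 were below 0, and these medians were 0.46, 0.41 and 0.42. The split of all genes moved with it, past 2-fold, from 988 higher and 1191 lower to 751 and 1513 with each array set to its median and to 1804 and 729 without scaling. With normexp and quantile normalization 0 members were higher by more than 2-fold, with 236 of all genes higher and 486 lower. With no filter on dim probes the median of the members minus that of all genes was 0.25, with 1800 of all genes higher and 2308 lower. At 1.5-fold 8 members were higher and 2 lower, where 15.6% and 17.6% of all genes were, and at 3-fold 0 were higher and 1 lower, where 2.24% and 3.57% were. Of 451 values of single members under the alternatives, 404 lay within the scanner error of the reported value and 46 beyond it, 41 of these without scaling. Only 1 gene past 2 scanner errors changed sign: Pttg1, at 0.53 with the mean of the probes of a gene. The series value table and the rules for dim probes and outlier spots could hardly move these members. A mean of probes could not move those with 1 probe. Many of the 404 values were therefore fixed in advance. No paired analysis was possible because there is only 1 array per genotype.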
